A study of Mus musculus with 21 samples.

Results

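The aryl hydrocarbon receptor genes are described here in mouse hearts: Cyp1a1, Cyp1b1, Ahr, Arnt, Ahrr and Tiparp, which are 6 of the 56691 genes in the deposited table. They were found by their gene symbols. Cyp1a1 was selected on its measured rise with doxorubicin in these same libraries, so its levels are a description and its groups are not tested against each other. The other members were chosen by their place in the pathway, with earlier results of these data known.

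Heart RNA was sequenced in 21 libraries. Control (n = 5) came from mice without tumor, and DOX (n = 5) from mice without tumor given the anthracycline doxorubicin intraperitoneally at 5 mg/kg in 3 weekly doses. Tb (n = 6) came from mice bearing a subcutaneous tumor of 4T1 cells, a murine breast cancer line, and Tb-DOX (n = 5) from such mice given the same doxorubicin course. The study used this 1 tumor line. Both groups without doxorubicin, Control and Tb, served as controls, and the paper describes them as treated with normal saline. Every label gives the tumor line as cell source, and the methods speak of heart tissue. The 8 cardiomyocyte markers (Myh6, Actc1, Tnnt2 and others) summed to 48280 to 87830 CPM (counts scaled to a common library total), and 8 epithelial markers that tumor cells could bring (Epcam, Krt8 and others) to 0.302 to 5.51 CPM.

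AHR is a transcription factor of the bHLH-PAS family that waits in the cytoplasm with HSP90 and its co-chaperones. A ligand, such as a dioxin, a planar hydrocarbon or a tryptophan metabolite, releases it to the nucleus, where it pairs with ARNT and binds a short DNA element with the core GCGTG. Its best known targets are the cytochrome P450 genes Cyp1a1 and Cyp1b1, which oxidize aromatic compounds, and the feedback genes Ahrr, whose product competes for ARNT, and Tiparp, an ADP-ribosyltransferase that lowers AHR activity. In heart, CYP1 enzymes are also known for turning fatty acids such as arachidonic acid into signaling lipids.

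The promoter windows below show where the letters of that core lie before the P450 and feedback genes among the members. Whether AHR binds at these letters was not tested, and sites further upstream would lie outside the windows. Each is the 250 bases upstream of the RefSeq start site in the gene's own direction, 5′ to 3′, on GRCm38.p6. Capitals mark GCGTG, or CACGC where the core lies on the other strand. The windows are chr9:57697363-57697612 on the plus strand for Cyp1a1, chr17:79715062-79715311 on the minus strand for Cyp1b1, chr3:65528197-65528446 on the plus strand for Tiparp and chr13:74292332-74292581 on the minus strand for Ahrr.
Cyp1a1: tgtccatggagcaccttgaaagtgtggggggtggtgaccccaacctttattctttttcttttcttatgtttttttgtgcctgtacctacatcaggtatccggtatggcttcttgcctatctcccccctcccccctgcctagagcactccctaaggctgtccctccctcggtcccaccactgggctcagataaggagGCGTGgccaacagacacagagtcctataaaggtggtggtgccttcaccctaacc
Cyp1b1: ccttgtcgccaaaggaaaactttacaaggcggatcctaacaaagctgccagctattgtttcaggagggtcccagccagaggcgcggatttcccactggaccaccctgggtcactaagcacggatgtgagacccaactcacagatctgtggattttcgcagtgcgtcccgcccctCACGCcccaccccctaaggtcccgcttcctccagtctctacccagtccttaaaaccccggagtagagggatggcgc
Tiparp: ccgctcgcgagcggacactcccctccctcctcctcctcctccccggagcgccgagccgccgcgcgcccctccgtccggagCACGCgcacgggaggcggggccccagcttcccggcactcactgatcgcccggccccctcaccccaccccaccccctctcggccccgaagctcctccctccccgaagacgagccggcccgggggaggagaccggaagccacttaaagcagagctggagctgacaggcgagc
Ahrr: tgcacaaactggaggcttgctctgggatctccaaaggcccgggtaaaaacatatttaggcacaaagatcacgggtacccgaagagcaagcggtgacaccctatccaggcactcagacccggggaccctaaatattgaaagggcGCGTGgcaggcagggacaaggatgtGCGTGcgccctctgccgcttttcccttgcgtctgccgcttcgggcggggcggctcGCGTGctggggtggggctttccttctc

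Of the 6 members, 5 had a RefSeq window, all but Ahr. The core stood once before Cyp1a1, Cyp1b1, Arnt and Tiparp, and 3 times before Ahrr. Of 32851 promoter windows of the same length, 28.2% held it at least once and 8.63% at least 2 times. GC content was 53.6% to 75.2% in the members' windows, against a median of 52.4% over all windows. The first base of the core lay 54 bases before the Cyp1a1 start, 76 before Cyp1b1, 170 before Tiparp and 107, 82 and 27 before Ahrr. GCGTG is also 1 of the core forms bound by hypoxia-inducible factors, so the letters do not tell these factors apart.

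In the deposited coordinates, for which the submitters' processing notes name GRCm39, Cyp1a1 (ENSMUSG00000032315) spans chr9:57595211-57611107 and Cyp1b1 (ENSMUSG00000024087) chr17:80008966-80022490. Ahr (ENSMUSG00000019256) spans chr12:35547973-35585037 and Arnt (ENSMUSG00000015522) chr3:95341699-95404551. Ahrr (ENSMUSG00000021575) spans chr13:74359237-74440450 and Tiparp (ENSMUSG00000034640) chr3:65435831-65462939. Each value is a count over the exons of the whole gene. On the per-length scale (FPKM, reads scaled by exon length and library total), Arnt was the most abundant member in Control at 7.24 ± 0.766 (SD, n = 5) and Cyp1a1 the least at 0.0780 ± 0.0792. Between them stood Tiparp at 4.34, Ahr at 1.72, Cyp1b1 at 1.59 and Ahrr at 0.384 FPKM, and of these neighbours only the ranges of Ahr and Cyp1b1 overlapped. In DOX hearts the order was Arnt 9.26, Tiparp 6.14, Cyp1b1 5.76, Cyp1a1 4.37, Ahr 2.95 and Ahrr 0.184 FPKM. Only Ahrr then stood apart from its neighbour, as Cyp1a1 spanned 0.510 to 14.7 FPKM. In Tb the order was Tiparp 10.03, Arnt 9.09, Cyp1b1 3.09, Ahr 2.47, Ahrr 0.487 and Cyp1a1 0.238 FPKM, with overlap for Tiparp with Arnt, Cyp1b1 with Ahr and Ahrr with Cyp1a1. In Tb-DOX it was Arnt 8.58, Tiparp 4.97, Cyp1b1 4.10, Ahr 3.04, Cyp1a1 1.42 and Ahrr 0.768 FPKM, where Arnt stood apart from Tiparp and Ahr from Cyp1a1.

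**Figure D1:**
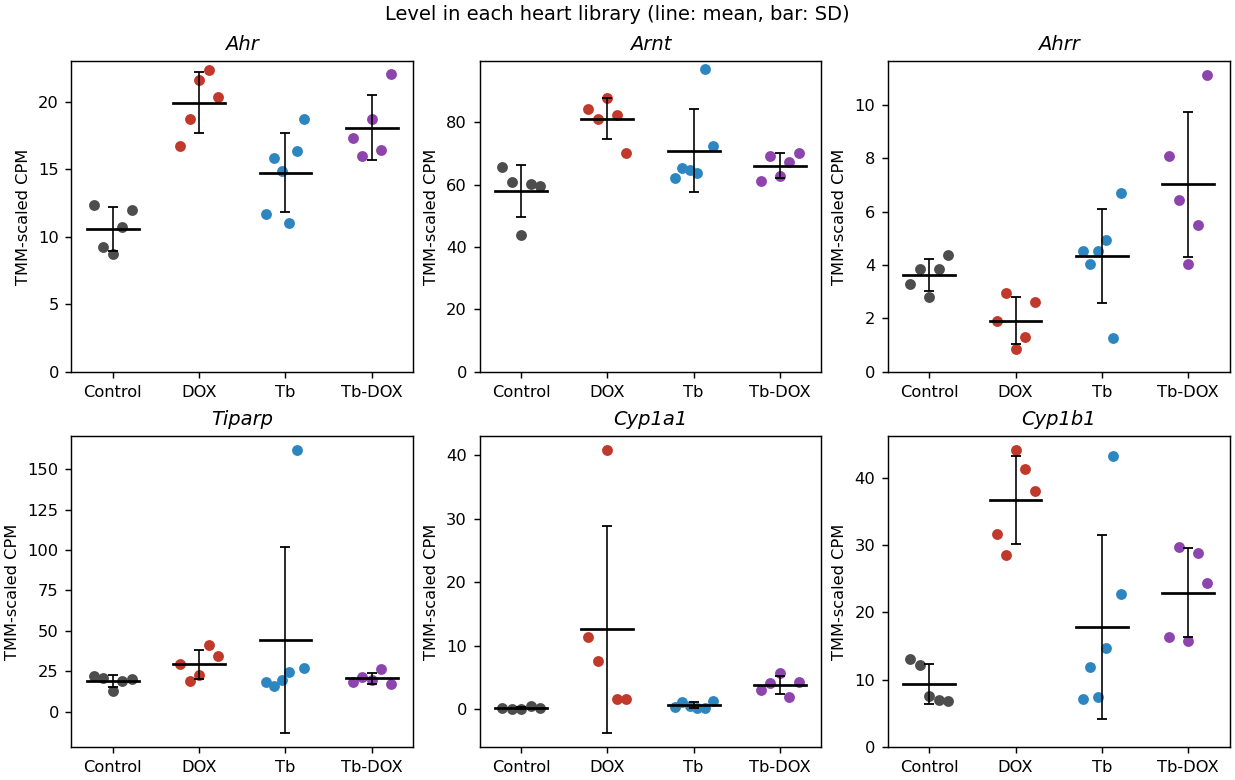
TMM-scaled CPM (linear axis) of the 6 members in each of 21 heart libraries, by group. Points are libraries, lines means and bars SD. All 5 DOX points of Ahr, Arnt, Cyp1b1 and Cyp1a1 lie above all Control points, and the Tb point at 162 CPM in Tiparp is replicate 5.

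The receptor and its partner were both higher in hearts given doxorubicin without tumor. Ahr was 1.88-fold higher and Arnt 1.40-fold higher in DOX than in Control, and in Tb-DOX against Tb neither passed the test. The edgeR quasi-likelihood test was run over the 13990 genes whose mean FPKM reached 0.5, and a gene was called at a Benjamini-Hochberg adjusted p under 0.05. Of the 4 members tested this way (Cyp1b1, Ahr, Arnt and Tiparp), 3 were higher and 0 lower in DOX against Control, beside 18.0% of all genes higher and 18.2% lower. Their median log2 fold change was 0.77, and that of all genes was 0.00. Their groups did not overlap in CPM for these 3 members, as for 12.0% of all genes in that direction. The cardiomyocyte sum was 57530 to 70510 CPM in Control and 72530 to 87830 CPM in DOX, and 8 erythroid markers (Hba-a1, Alas2 and others) summed to 204 to 799 CPM and 4.74 to 133 CPM. With tumor these sums were 48280 to 57670 CPM in Tb and 60830 to 75500 CPM in Tb-DOX, and 371 to 836 CPM and 2.47 to 29.0 CPM. Their part in the members' values was not tested.

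Ahr, the receptor, read 12.4, 9.23, 8.70, 10.7 and 12.0 CPM in the Control libraries. It read 16.7, 18.7, 21.6, 22.3 and 20.4 CPM in DOX. The lowest DOX library was above the highest Control library. DOX exceeded Control by 0.91 on the log2 scale (SE 0.147, adjusted p = 0.0001 by edgeR), and all 5 DOX libraries lay above the Control mean. In Tb the lowest, median and highest were 11.03, 15.3 and 18.7 CPM, and the Tb-DOX libraries read 17.3, 16.0, 18.7, 16.4 and 22.01 CPM. These groups overlapped. The log2 fold change of Tb-DOX against Tb was 0.30 (SE 0.138, adjusted p = 0.229). The difference between both doxorubicin effects was −0.62 on the log2 scale (SE 0.202, adjusted p = 0.0573), which missed the threshold in edgeR and passed it in DESeq2 at 0.0289. It also passed without DOX replicate 1, Tb replicate 1, Tb replicate 4 or Tb-DOX replicate 5.

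Arnt, the nuclear partner of AHR and of the hypoxia-inducible factors, read 65.8, 61.0, 43.9, 60.4 and 59.7 CPM in Control. The DOX libraries read 84.2, 81.0, 87.9, 82.5 and 70.3 CPM, all above Control. On the FPKM scale, without TMM factors, the highest Control library at 8.02 was above the lowest DOX library at 7.88. DOX exceeded Control by 0.48 on the log2 scale (SE 0.118, adjusted p = 0.00318 by edgeR). In Tb the lowest, median and highest were 62.1, 65.0 and 97.0 CPM, with replicate 5 the highest. The Tb-DOX libraries read 61.1, 69.4, 62.8, 67.4 and 70.1 CPM, within the Tb range but for replicate 1 just below it. The log2 fold change of Tb-DOX against Tb was −0.10 (SE 0.112, adjusted p = 0.668), and it was 0.01 without Tb replicate 5.

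For Arnt the difference between both doxorubicin effects was −0.58 (SE 0.163, adjusted p = 0.032 by edgeR), so the effect was smaller with tumor. Of the 4 members tested only Arnt was called for this difference, beside 8.94% of all genes. The call was lost when libraries were scaled by their totals (−0.44, adjusted p = 0.0753) and under the replicate block (−0.58, adjusted p = 0.0645). It was also lost without DOX replicate 3, Tb-DOX replicate 1 or Tb-DOX replicate 3, over a range of −0.64 to −0.47. On the scale of TMM-scaled CPM all 5 Tb-DOX libraries lay below all 5 DOX libraries in Arnt (highest 70.1 against lowest 70.3 CPM), as did 6.83% of all genes, while in FPKM the groups overlapped, at 7.87 to 9.55 in Tb-DOX and 7.88 to 11.03 in DOX. The difference had a log2 fold change of −0.30 (SE 0.117, adjusted p = 0.0858).

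Cyp1a1, the classical readout of AHR activity, had at most 8 reads in any Control library and at least 20 in every DOX library. Cyp1b1 started higher and was 3.94-fold higher in DOX.

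Cyp1a1 had 3, 0, 2, 8 and 3 reads in the Control libraries, 16 in all. The DOX libraries had 169, 99, 613, 20 and 20 reads. Every DOX library was above every Control library, and within DOX the highest was 25.7-fold above the lowest in CPM. Means were 0.222 ± 0.228 CPM in Control and 12.6 ± 16.3 CPM in DOX (SD, n = 5 each). The fitted log2 fold change was 5.84, or 57.3-fold, and 4.67 without DOX replicate 3, which held 40.8 CPM. On the log2(FPKM + 0.1) scale, which understates the change of low genes, the group means differed by 3.74.

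With tumor, Cyp1a1 lay between these extremes. The Tb libraries had 6, 17, 10, 4, 3 and 22 reads, with a mean of 0.631 ± 0.466 CPM (n = 6). The Tb-DOX libraries had 54, 69, 79, 35 and 73 reads, with a mean of 3.86 ± 1.41 CPM (n = 5). All Tb-DOX libraries were above all Tb libraries, and their highest was 2.86-fold above their lowest. The fitted log2 fold change was 2.61, or 6.09-fold, with 2.41 to 2.95 when any 1 library was left out. Tb overlapped Control, at a log2 fold change of 1.52. Tb-DOX overlapped DOX, at −1.72, since DOX replicates 4 and 5 at 1.61 and 1.59 CPM were below all Tb-DOX libraries and DOX replicates 1, 2 and 3 at 11.4, 7.68 and 40.8 CPM were above them. Without DOX replicate 3 that value was −0.54. The doxorubicin effect with tumor minus that without was −3.24 on the log2 scale, and −2.06 without DOX replicate 3.

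**Figure D2:**
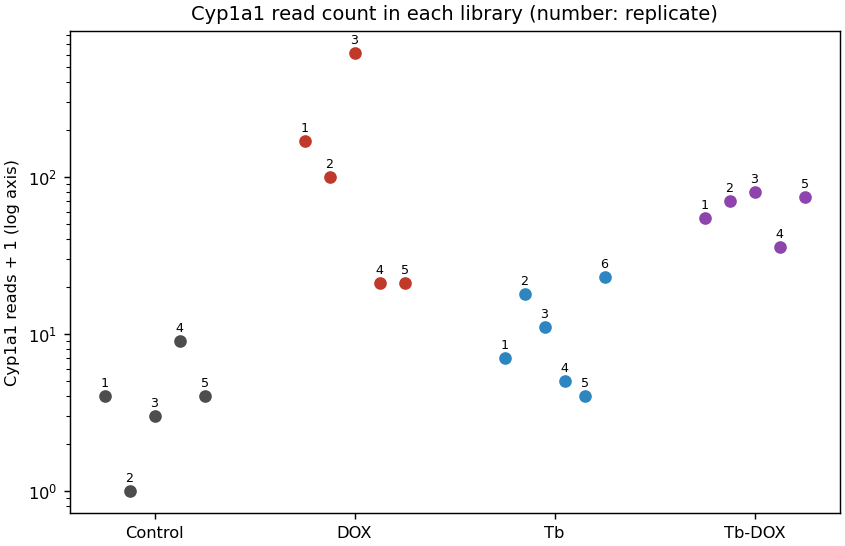
Cyp1a1 reads plus 1 (log axis) in each library, with the replicate number above each point. DOX spans 20 to 613 reads, Tb-DOX 35 to 79, Tb 3 to 22 and Control 0 to 8.

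Cyp1b1, a P450 of mesenchymal and vascular cells, read 13.0, 12.1, 7.61, 6.94 and 6.87 CPM in Control. It read 31.7, 28.5, 44.1, 41.3 and 37.9 CPM in DOX, with no overlap. DOX exceeded Control by 1.98 on the log2 scale (SE 0.381, adjusted p = 0.000485 by edgeR) and 1.89 to 2.13 when any 1 library was left out. In Tb the lowest, median and highest were 7.09, 13.2 and 43.1 CPM, and replicate 5 alone reached the level of DOX. The Tb-DOX libraries read 16.3, 29.6, 15.7, 28.7 and 24.3 CPM and overlapped Tb. Tb-DOX against Tb was 0.37 (SE 0.348, adjusted p = 0.601), and 0.85 without Tb replicate 5. The difference between both doxorubicin effects was −1.61 (SE 0.513, adjusted p = 0.0516 by edgeR, 0.0145 by DESeq2), and −1.13 without Tb replicate 5. It passed with no expression minimum (adjusted p = 0.0229) and without Tb replicate 1, 2 or 3. The summed CPM of 10 endothelial markers (Pecam1, Cdh5 and others) was 1532 to 1637 in Control, 1109 to 1479 in DOX, 1598 to 2241 in Tb and 1303 to 1643 in Tb-DOX, and that of 8 fibroblast markers (Col1a1, Dcn and others) 2383 to 2555, 1718 to 1935, 1569 to 2146 and 1359 to 1921. Of the 10 endothelial markers 1 had a higher mean in DOX than in Control and 9 a lower one, and of the 8 fibroblast markers 2 and 6. The sum of 8 smooth muscle and pericyte markers was higher, at 1128 to 1302 CPM in DOX against 1023 to 1124 in Control, with 4 of 8 markers at a higher mean and 4 at a lower one, and was 800.2 to 1225 in Tb and 939.7 to 1072 in Tb-DOX. The part of cell makeup in the result was not tested. In bulk tissue, fewer cells of a type and less RNA per cell cannot be told apart.

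Of the feedback genes, Tiparp passed the test in no comparison of the fit of all libraries, with 1 Tb library deciding this for DOX against Control, and Ahrr, which lay just below the expression minimum, had a lower mean in DOX than in Control and was higher in Tb-DOX than in DOX.

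Tiparp, the ADP-ribosyltransferase of the AHR feedback loop, read 21.9, 20.98, 12.8, 18.9 and 20.4 CPM in Control and 29.8, 19.0, 22.9, 41.3 and 34.7 CPM in DOX. DOX replicate 2 lay within the Control range, and the fitted log2 ratio stood at 0.64 (SE 0.482, adjusted p = 0.313 by edgeR). It was also 0.64 and past the threshold without Tb replicate 5 (adjusted p = 0.0102) and with only DOX and Control in the fit (adjusted p = 0.0237). In Tb the lowest, median and highest were 16.1, 21.95 and 162 CPM. Replicate 5 held 162 CPM, and the others averaged 21.1 ± 4.61 (SD, n = 5). The Tb-DOX libraries read 18.7, 21.5, 19.7, 26.4 and 17.3 CPM, within the range of Tb. The log2 fold change of Tb-DOX against Tb was −1.10 (SE 0.464, adjusted p = 0.178) with that library and −0.03 without it. The difference between both doxorubicin effects was −1.74 (SE 0.668, adjusted p = 0.0925), and −0.67 without it.

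Ahrr, the receptor's repressor, had a mean of 0.457 FPKM over all libraries, just under the minimum of 0.5. It had 51, 55, 49, 51 and 67 reads in Control, 28, 38, 13, 16 and 33 in DOX, and 144, 106, 56, 96 and 186 in Tb-DOX. In Tb the lowest, median and highest were 21, 71 and 117 reads. Mean levels were 3.63 ± 0.603 CPM in Control, 1.92 ± 0.875 in DOX, 4.34 ± 1.76 in Tb and 7.04 ± 2.71 in Tb-DOX. DOX and Control overlapped in 1 library each, DOX replicate 2 at 2.95 and Control replicate 3 at 2.81 CPM. In a fit of all 34543 genes with any read, the log2 fold change of DOX against Control was −0.90 (SE 0.332, adjusted p = 0.063 by edgeR), that of Tb-DOX against Tb was 0.69 (SE 0.292, adjusted p = 0.279), and their difference was 1.59 (SE 0.442, adjusted p = 0.035). That difference stayed under 0.05 in 14 of 21 fits that each left out 1 library, with values of 1.37 to 1.80. Tb-DOX was above DOX in every library, as were 7.66% of the genes above the minimum, with a log2 fold change of 1.86 (SE 0.329, adjusted p = 0.000181), called in 21 of 21 such fits. The sum of 8 male germ cell markers (Tnp1, Prm1 and others) was 1.78 to 6.09 CPM in Control, at most 0.239 in DOX and 0.182 in Tb, and 4.85 to 5.27 in Tb-DOX but for 0 in replicate 1. Its part in the Ahrr values was not tested.

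**Figure D3:**
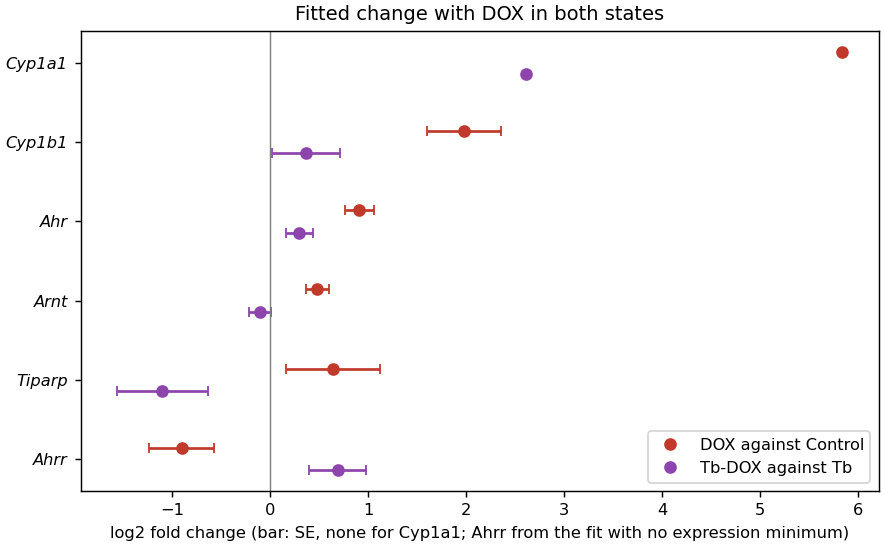
Fitted log2 fold change of each member with doxorubicin, without tumor (DOX against Control) and with tumor (Tb-DOX against Tb). Bars are SE, with none drawn for Cyp1a1, and Ahrr is from the fit with no expression minimum. The values without tumor lie above those with tumor for Cyp1b1, Ahr, Arnt (0.48 against −0.10) and Tiparp. Of these 4 only Arnt passed the test of the difference by edgeR. For Ahrr they lie below, at −0.90 against 0.69. Cyp1a1, at 5.84 against 2.61, was chosen for its rise with doxorubicin and was not tested.

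Of the 4 members tested, 0 had a Tb-DOX group wholly above Tb, beside 2.73% of all genes higher without overlap. The groups of Ahrr overlapped as well. In Tb-DOX against Tb 0 of the 4 members were called, beside 4.72% of all genes. At an unadjusted edgeR p under 0.05 these 4 held Ahr and Tiparp, at unadjusted edgeR values of 0.0441 and 0.0266. Their directions were opposite, with log2 fold changes of 0.30 for Ahr and −1.10 for Tiparp. Without Tb replicate 5 Tiparp was at −0.03. No share of all genes is given for the unadjusted threshold, so these members are not set beside one. DESeq2 called none of the 4 in Tb-DOX against Tb either. Tb and Tb-DOX share no library with DOX and Control, so both doxorubicin effects rest on separate libraries.

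The tumor itself moved 1 of the 4 members tested past the threshold. Ahr was higher in Tb than in Control by 0.48 (SE 0.141, adjusted p = 0.047 by edgeR), beside 6.28% of all genes called. The groups overlapped, and all 6 Tb libraries were above the Control mean. The call was lost in 12 of 21 fits that each left out 1 library, with values of 0.40 to 0.55: those without Control replicate 2, 3, 4 or 5, DOX replicate 5, Tb replicate 2, 3, 5 or 6, or Tb-DOX replicate 1, 2 or 3. With only both groups in the fit its adjusted p was 0.109. Cyp1b1 differed by 0.93 (SE 0.363, adjusted p = 0.143), Arnt by 0.29 (SE 0.113, adjusted p = 0.148) and Tiparp by 1.23 (SE 0.467, adjusted p = 0.134), and without Tb replicate 5 these were 0.46, 0.18 and 0.16. Under doxorubicin, 0 of 4 members were called in Tb-DOX against DOX, beside 17.5% of all genes called (9.52% higher, 7.93% lower). Cyp1b1 differed by −0.68 (SE 0.363, adjusted p = 0.203), Ahr by −0.14 (SE 0.144, adjusted p = 0.529) and Tiparp by −0.51 (SE 0.479, adjusted p = 0.486), and Ahr turned to 0.04 when libraries were scaled by their totals. With only both groups in the fit, Cyp1b1 (−0.67, adjusted p = 0.0287) and Arnt (−0.29, adjusted p = 0.028) passed. Arnt also passed without Tb replicate 5 (−0.29, adjusted p = 0.0217) and without DOX replicate 5 (−0.35, adjusted p = 0.0459). These comparisons reuse the libraries of those above.

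Tb replicate 5 stood apart in several members at once. It was the highest Tb library in Tiparp at 162 CPM, in Cyp1b1 at 43.1 CPM against 12.7 ± 6.41 in the others and in Arnt at 97.0 CPM against 65.7 ± 4.00. It was the lowest in Ahrr, at 1.27 CPM against 4.95 ± 1.03, and in Cyp1a1, at 0.182 CPM against 0.721 ± 0.459 (SD, n = 5 each). Ahr, at 16.3 CPM, lay within its group. The same library held the highest Tb sums of 10 neutrophil markers (S100a8, Ly6g and others), at 5518 CPM, of 10 T cell and thymocyte markers (Cd3e, Lck and others), at 46.8 CPM, and of the endothelial markers, at 2241 CPM. It was also the highest Tb library in the epithelial (4T1 tumor) sum, at 5.51 CPM (next 5.15), and in every other marker sum but those of fibroblasts, hepatocytes and macrophages. Their part in these values was not tested.

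Other sources of Cyp1a1 were looked at through their markers. The gene is strongly inducible in lung and liver. The 8 lung epithelial markers (Sftpc, Scgb1a1 and others) summed to 0.0700 to 1.59 CPM and the 8 hepatocyte markers (Alb, Apoa1 and others) to 0.0618 to 3.79 CPM. The hepatocyte sum was 2.02 to 3.79 CPM in DOX and at most 1.58 CPM in every library of the other groups. Of its 8 markers 5 had a higher mean in DOX than in Control and 1 a lower one. Fgb and Cyp3a11 were at 0 in both groups, and Alb and Apob were at 0 in all Control libraries but had reads in DOX. The lung sum had a median of 0.725 CPM and reached 1.59 in DOX, against 0.262 and 0.515 in Control, and 6 of its 8 markers had a higher mean in DOX and 0 a lower one. Sftpa1 and Sftpd were at 0 in both groups. Cyp1a2, the liver-restricted neighbour in the family, had 0 reads in all 21 libraries, which allows up to 0.00920 CPM over their summed reads by counting error. Neutrophil markers summed to 2.75 to 4.75 CPM in Control, 7.71 to 59.5 in DOX, 592 to 5518 in Tb and 883 to 3703 in Tb-DOX. T cell markers reached 312 CPM in DOX replicate 4. DOX replicate 3, with the most Cyp1a1, had 59.5 CPM of neutrophil markers, the highest of DOX, and the lowest Ahrr of all libraries at 0.866 CPM. The part of these cells in the members' levels was not tested.

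Of 65 further genes of the pathway in the table, 35 were above the minimum. In DOX against Control 11 were higher and 5 lower, beside the 18.0% and 18.2% of all genes, and Npas2 and Nr1h4 among the 11 passed the minimum only through the doxorubicin groups. In Tb-DOX against Tb, 1 was higher and 5 lower, beside 2.18% and 2.54%. Their median log2 fold change was −0.01 and 0.01 in these comparisons, near the medians of all genes at 0.00 and −0.02.

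Among the chaperones that hold AHR in the cytoplasm, 0 of 4 were higher and 1 lower in DOX against Control. The shares of all genes were 18.0% and 18.2%. In Tb-DOX against Tb 2 were lower, beside 2.54% of all genes. Ptges3, the p23 co-chaperone, fell by 0.44 (adjusted p = 0.00192 by edgeR) and by 0.39 (adjusted p = 0.0215) on the log2 scale, without overlap in either, where 13.3% and 2.23% of all genes were lower in that way. The second call was lost without Tb replicate 1 or Tb-DOX replicate 5, and with scaling by library totals (−0.37, adjusted p = 0.0613 by edgeR). Hsp90aa1, the inducible HSP90, fell by 0.99 in Tb-DOX against Tb (adjusted p = 0.0219 by edgeR). Without Tb replicate 5 its log2 fold change was −0.65, still called. The call was lost without Tb-DOX replicate 1, 2 or 3 and with only both groups in the fit. Hsp90ab1, the constitutive form and most abundant of the list by mean FPKM over all 21 libraries, did not pass.

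Of 11 bHLH-PAS relatives that share ARNT or its fold, 5 were above the expression minimum. Arntl, Npas2, Hif3a and Epas1 were higher in DOX than in Control, beside 18.0% of all genes higher. Npas2 reached the minimum only through the doxorubicin groups, with 0.208 FPKM in Control, 0.408 in Tb, 0.660 in DOX and 0.804 in Tb-DOX, and Arntl stood at 0.324 FPKM in Control, so the minimum favoured genes that rose. Arntl, the clock factor BMAL1, went from 2.40 ± 1.63 to 22.5 ± 9.58 CPM, a log2 fold change of 3.21 (adjusted p = 0.000704 by edgeR). Npas2, its clock partner, rose by 1.81 (adjusted p = 0.008), Hif3a by 1.95 (adjusted p = 0.000761) and Epas1, which encodes HIF-2α, by 0.47 (adjusted p = 5.36e-05). With tumor 0 of 5 were called, beside 4.72% of all genes. The log2 fold changes were 0.97 for Arntl, 0.98 for Npas2, 0.90 for Hif3a and 0.08 for Epas1. The difference between both effects passed for Epas1 alone, at −0.39 (adjusted p = 0.0233), and not with scaling by library totals (−0.25, adjusted p = 0.122), with no expression minimum (−0.41, adjusted p = 0.074) or under the replicate block (adjusted p = 0.0554). Hif1a rose in Tb against Control by 1.02 (adjusted p = 0.0346), where Tb replicate 5 held 430 CPM and the others 121 ± 15.6. Without that library its log2 fold change was 0.51 and still called. The call was lost whenever 1 Control library, whichever it was, was left out. It was also lost under the replicate block (0.94, adjusted p = 0.088 by edgeR) and with only both groups in the fit (1.04, adjusted p = 0.113).

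Of 11 other AHR target genes, 3 were above the minimum, and 2 of these 3 were higher in DOX, beside 18.0% of all genes. Nqo1, the quinone reductase that also acts on anthracyclines, went from 42.2 ± 4.93 to 79.5 ± 12.7 CPM without overlap, a log2 fold change of 0.91 (SE 0.122, adjusted p = 1.72e-05 by edgeR). With tumor Nqo1 read 52.6 ± 6.74 CPM in Tb and 55.3 ± 7.37 in Tb-DOX, a log2 fold change of 0.07 (SE 0.115, adjusted p = 0.776). The difference between both effects was −0.84 (SE 0.168, adjusted p = 0.0106), called in all 21 fits that each left out 1 library. Nqo1 is also a target of the antioxidant factor NRF2. Selenbp1, a selenium-binding methanethiol oxidase, was higher in both states, by 0.83 (adjusted p = 1.75e-05) and 0.61 (adjusted p = 0.00277), without overlap in either. Its doxorubicin effects did not pass the test of their difference (−0.22, SE 0.152, adjusted p = 0.343). In Tb-DOX against DOX, Nqo1 was lower by 0.52 (−0.52, adjusted p = 0.0048) and Selenbp1 by 0.40 (−0.40, adjusted p = 0.0152), and both calls were lost with scaling by library totals.

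The 8 target genes below the minimum had few reads. Ugt1a7c, a glucuronosyltransferase, had 22 reads in all Control and 23 in all DOX libraries, against 318 in Tb and 215 in Tb-DOX. In the fit of all genes with any read its log2 fold change was 3.38 in Tb against Control (adjusted p = 9.99e-05 by edgeR) and 2.89 in Tb-DOX against DOX (adjusted p = 0.00103), and both calls were kept in all 21 fits with 1 library left out. Ugt1a6a differed by 2.67 in Tb-DOX against DOX (adjusted p = 0.0366), a call lost in 5 of those 21 fits. The Ugt1a genes share their last exons, so their reads are uncertain between them, and neutrophil markers were higher in the same groups. Gsta2, a glutathione transferase, had 0 reads in Control and 11 in DOX.

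Of the 11 enzymes that make or use kynurenine, a source of AHR ligands, 3 were tested. Kyat3, a kynurenine aminotransferase, was higher in DOX by 0.64 (adjusted p = 0.000331 by edgeR) and differed by 0.31 in Tb-DOX against Tb (adjusted p = 0.116). In Tb-DOX against DOX it was lower by 0.36 (−0.36, adjusted p = 0.0372 by edgeR). That call was lost with scaling by library totals, with no expression minimum (−0.37, adjusted p = 0.0838) and without any of 7 libraries. Kyat1, the most abundant of the list by the same mean, did not pass. Ido1, Ido2 and Tdo2, which open the pathway from tryptophan, had 81, 7 and 272 reads over the 21 libraries. Haao, a later enzyme, had 12 reads in Control and 91 in Tb, at a log2 fold change of 2.44 in the fit of all genes with any read (adjusted p = 0.0123, lost in 1 of the 21 fits with 1 library left out), and Aadat had 0 in Control and 16 in DOX, with 15 of them in 1 library. The 3 electron donors of P450 enzymes (Por, Cyb5a and Cyb5r3) had 0 calls in any of the 5 comparisons by edgeR. Cyb5r3 was the most abundant by that mean and came nearest in Tb-DOX against Tb, at 0.41 (adjusted p = 0.0534, unadjusted p = 0.00265).

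**Figure D4:**
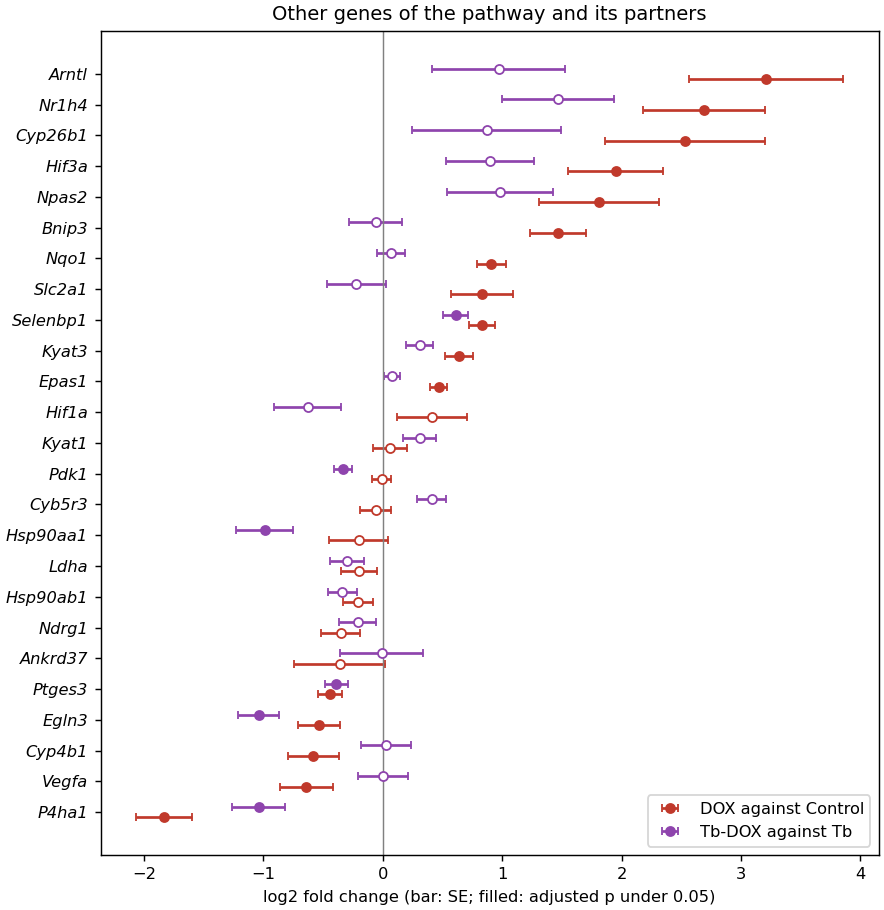
Log2 fold change with doxorubicin of the named pathway genes, without tumor (DOX against Control) and with tumor (Tb-DOX against Tb). Bars are SE, and filled points have an adjusted p under 0.05. Arntl is at 3.21 against 0.97, and P4ha1 is lowest in the first comparison, at −1.83 against −1.04.

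Of 11 tested targets of the hypoxia-inducible factors, the other partners of ARNT, 2 were higher and 3 lower in DOX against Control. The shares of all genes were 18.0% higher and 18.2% lower. Bnip3, a mitophagy receptor, rose by 1.47 (adjusted p = 9.39e-05 by edgeR) and Slc2a1, the glucose transporter GLUT1, by 0.83 (adjusted p = 0.0168). P4ha1, a collagen prolyl hydroxylase, fell by 1.83 (adjusted p = 1.33e-05), Vegfa by 0.64 (adjusted p = 0.0282) and Egln3, an oxygen sensor, by 0.53 (adjusted p = 0.0213). The Vegfa call was lost without Control replicate 5 or DOX replicate 1, 2, 3 or 5, and the Egln3 call without Control or DOX replicate 4. With tumor 3 fell and 0 rose, beside 2.54% and 2.18% of all genes. P4ha1 fell by 1.04 (adjusted p = 0.0108, and 0.0512 with only both groups in the fit) and Egln3 by 1.04 (adjusted p = 0.00188). Pdk1, a brake on pyruvate oxidation, fell by 0.33 (adjusted p = 0.0179, lost without Tb-DOX replicate 4 and, at 0.0617, with no expression minimum). Bnip3 was at −0.06 there, and its difference between both effects was −1.52 (adjusted p = 0.0135).

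In Tb against Control, Ndrg1 rose by 0.53 (adjusted p = 0.0439 by edgeR) and Slc2a1 by 0.87 (adjusted p = 0.0406), calls that went when some single libraries were left out (14 and 7 of 21). In Tb-DOX against DOX, Ndrg1 was higher by 0.67 (adjusted p = 0.00708) and Ankrd37 by 1.09 (adjusted p = 0.0493, lost in 15 of 21 such fits), while Bnip3 was lower (−0.82, adjusted p = 0.0183, lost without DOX replicate 4) and so was Epas1 (−0.38, adjusted p = 0.000835). With scaling by library totals, the count of pathway genes lower in Tb-DOX against DOX went from 6 to 0 and that of genes higher from 2 to 6. That scaling moved the median of all genes from −0.01 to 0.18 in this comparison, from 0.00 to −0.14 in DOX against Control and from 0.00 to 0.14 for the difference between both effects. Ldha was the most abundant target of the list by mean FPKM over all 21 libraries, though below Bnip3 in DOX, and did not pass in either doxorubicin comparison.

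Of the P450 genes and receptors of other xenobiotic pathways, 6 of 13 were tested, with 2 higher and 1 lower in DOX against Control. The shares of all genes were 18.0% and 18.2%. Nr1h4, the bile acid receptor FXR, went from 0.951 ± 0.610 to 6.26 ± 2.76 CPM, a log2 fold change of 2.69 (adjusted p = 0.000406 by edgeR). It reached the expression minimum only through the doxorubicin groups, with 0.420 FPKM in Control, 0.485 in Tb, 2.50 in DOX and 1.41 in Tb-DOX, so its place among the genes higher is no support for the list. Cyp26b1, which breaks down retinoic acid, rose by 2.53 (adjusted p = 0.00581), with 180 CPM in DOX replicate 4 and 1.76 without that library. In Tb-DOX against DOX it was lower (−1.95, adjusted p = 0.0421), a call lost without DOX replicate 4 (−1.20, adjusted p = 0.201), without 5 other single libraries, with library totals (adjusted p = 0.0545) and under the replicate block (−1.84, adjusted p = 0.0745). Without Tb-DOX replicate 3 it was −2.78. Cyp4b1 was the most abundant of the list by mean FPKM over all 21 libraries, though below Cyp26b1 in DOX. In DOX against Control it fell by 0.58 (adjusted p = 0.0414 by edgeR), a call that 8 of the 21 fits with 1 library left out lost. The call was also lost with only both groups in the fit (adjusted p = 0.0604) and without DOX replicate 4 and Tb replicate 5 together (adjusted p = 0.0542). With tumor 0 of 6 were called, beside 4.72% of all genes, with Nr1h4 at 1.47 (adjusted p = 0.0754 by edgeR).

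The genes whose order over the 21 libraries was most like that of Cyp1a1 were not the other members. By Spearman correlation of log2(CPM + 0.1) over 13989 other genes, Phf12, a PHD finger protein of a histone deacetylase complex, was first at 0.92. Trim23, a ubiquitin ligase, followed at 0.88, and Actr8, a subunit of the INO80 remodeler, Lad1, an anchoring filament protein, and Rcsd1, a capping protein partner, stood at 0.87 each. Of the members, Ahr stood at 0.76, Cyp1b1 at 0.56, Arnt at 0.53 and Tiparp at 0.08. The libraries share their groups, and a difference between groups alone gives such values. By Pearson correlation 3 of these 5 genes, and by Pearson correlation of the deviations from group means 1 of them (Phf12), were among the 5 highest. Phf12 read 22.5 ± 1.80 CPM in Control, 39.2 ± 9.95 in DOX, 25.7 ± 1.53 in Tb and 29.7 ± 1.88 in Tb-DOX. Lad1 read 4.06 ± 0.936, 18.7 ± 9.93, 4.47 ± 1.84 and 11.5 ± 1.47 CPM in the same order.

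**Figure D5:**
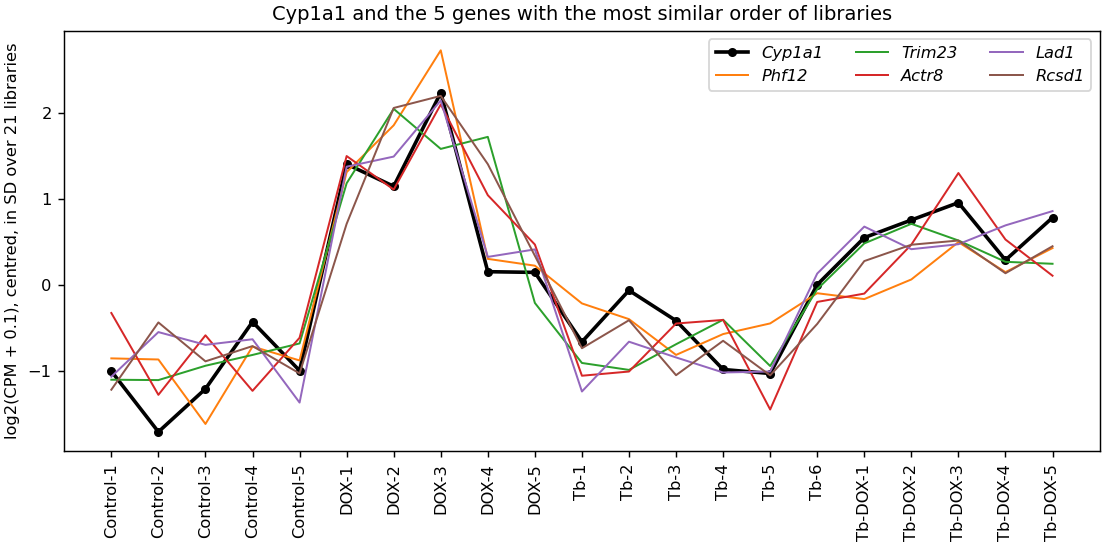
Log2(CPM + 0.1) of Cyp1a1 (black) and the 5 genes with the highest Spearman correlation with it, each centred and divided by its SD over the 21 libraries. Each gene is highest in DOX replicate 2 or 3, and Cyp1a1 is the lowest of the 6 in DOX replicate 4.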

How the data were processed

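Heart RNA of 21 mouse libraries was measured by RNA-seq, grouped and numbered by their labels. The authors enriched mRNA with oligo(dT) beads, and the labels also name rRNA depletion. The submitters' processing notes name GRCm39, cutadapt, FastQC, HISAT2, HTSeq 0.6.1 and DESeq2 1.34.0, and strandedness is not given in the sources used here. The authors deposited a single table that gives each gene's raw count and its FPKM in every library. The deposited FPKM equalled the count divided by gene length and library total in 100% of values, within 0.0051 FPKM. Depth was 13521200 to 18601445 counts per library, and intervals at this depth cover counting error only.

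The test was edgeR 4.0.16 (R 4.3.3, quasi-likelihood, TMM, all 4 groups in 1 fit) over the 13990 genes whose mean FPKM reached 0.5, adjusted by Benjamini-Hochberg over these genes. SEs were derived from the log2 fold and F values. CPM are TMM-scaled, with totals taken over the tested genes. The method was tested on simulated data. Nothing states that replicates came from separate mice, so p-values measure the spread between libraries. Replicates differed by more than counting error, with a chi-square per degree of freedom of at least 5.95.

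The members and gene lists were chosen with earlier results of these data known. Cyp1a1 was in the fit of all genes, but as it was chosen for its rise its differences are given with no p or SE. It reached the expression minimum only through the doxorubicin groups. Pathway genes were named if called in any of 5 comparisons or most abundant in their list, and likeness to Cyp1a1 named the 5 highest genes. Gsta2, Haao, Aadat, Ugt1a7c, Ugt1a6a, Ido1, Ido2 and Tdo2 were chosen after their values were seen. Alternatives were other scalings, expression minimums, samples, a replicate block, a fold limit, DESeq2 1.42.0 and left-out libraries. The RefSeq promoter windows are on GRCm38.p6 and no coordinates were converted.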

Additional observations from a re-analysis of the deposited data

Results flagged for a closer look

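Of 124 groups of libraries tested over 31 genes, 12 held a value that stood apart from the rest of its group by Dixon's criterion, and chance gives such a value in about 1 in 20 groups. Among the members these were Cyp1a1 in DOX replicate 3 at 40.8 CPM (next 11.4), Arnt in Control replicate 3 at 43.9 CPM (next 59.7), Arnt in Tb replicate 5 at 97.0 CPM (next 72.5) and Tiparp in Tb replicate 5 at 162 CPM (next 27.3). Hif1a also stood apart in Tb replicate 5, at 430 CPM (next 138). Cyp26b1 did so in DOX replicate 4 at 179.7 CPM and in Tb-DOX replicate 3 at 48.1 CPM, Cyp4b1 in DOX replicate 3 at 19.9 CPM and Hif3a in Tb-DOX replicate 2 at 17.9 CPM. In Control, Hsp90ab1 stood apart in replicate 3 at 1527 CPM, Selenbp1 in replicate 3 at 71.6 CPM and Kyat3 in replicate 1 at 35.0 CPM.

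The doxorubicin effect differed between hearts with and without tumor, by the test of the difference itself, in 1 of 4 members and 3 of 35 pathway genes tested, a share near the 8.94% of all genes, and in Ahrr by another fit. On the log2 scale the effect with tumor minus that without was −0.58 for Arnt, −0.84 for Nqo1, −0.39 for Epas1 and −1.52 for Bnip3. For Ahrr it was 1.59 in the fit with no expression minimum, where Epas1 did not pass (adjusted p = 0.074). The Arnt and Epas1 calls were also lost with scaling by library totals (adjusted p = 0.0753 and 0.122) and under the replicate block (0.0645 and 0.0554).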

How the results depend on the processing

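Leaving out 1 library gave 3 to 6 pathway genes lower and 11 to 13 higher in DOX against Control, 4 to 6 lower and 1 to 3 higher in Tb-DOX against Tb, and 3 to 4 lower and 0 to 1 higher for the difference between both effects. It gave 0 to 4 higher and 0 to 1 lower in Tb against Control, and 1 to 2 higher and 3 to 7 lower in Tb-DOX against DOX. The Cyp1a1 log2 fold change ran from 4.67 to 6.55 in DOX against Control, 2.41 to 2.95 in Tb-DOX against Tb, −3.94 to −2.06 for their difference, 1.18 to 2.22 in Tb against Control and −2.01 to −0.54 in Tb-DOX against DOX. Arnt in Tb-DOX against Tb turned from −0.10 to 0.01 without Tb replicate 5, and to 0.01 without DOX replicate 4 and Tb replicate 5 together, an alternative chosen after seeing the data. Ahr in Tb-DOX against DOX turned from −0.14 to 0.04 with library totals.

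With a log2 fold change of at least 1, the pathway counts higher and lower were 6 and 1 in DOX against Control, 0 and 2 in Tb-DOX against Tb, 1 higher in Tb against Control, 1 and 1 in Tb-DOX against DOX, and 1 lower for the difference between both effects, as fewer genes can pass. DESeq2 gave 3 higher in Tb-DOX against Tb, 5 lower for the difference and 5 higher in Tb against Control. A mean FPKM of at least 5 gave 4 higher in DOX against Control, 2 in Tb-DOX against Tb and 1 in Tb against Control. No minimum gave 7 higher in Tb against Control and 4 in Tb-DOX against DOX. In Tb-DOX against DOX, library totals gave 6 higher and 0 lower, and median-ratio scaling 1 higher. With only the groups compared, 3 were lower in Tb-DOX against Tb and 1 higher in Tb against Control. Without DOX replicate 4 and Tb replicate 5, 2 were higher in Tb-DOX against Tb and 1 for the difference. Where fewer genes or samples were not the change, the cause was not tested.

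Same-numbered libraries of different groups had residual correlations of −0.228 to 0.204 over 30 pairs, so the numbers do not pair the libraries. The replicate block gave 2 pathway genes higher in Tb-DOX against Tb and 0 in Tb against Control. Under the block Arnt's difference between both effects had an adjusted p of 0.0645, that of Epas1 0.0554, and Ahr in Tb against Control 0.164. Genes with few reads, such as Cyp1a1 in Control, are limited by depth.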
